A study of Malus domestica with 36 samples.

Results

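The mitochondrial genome of apple was represented in the deposited expression table by 36 of its 57423 identifiers. They were chosen by name: identifiers that begin with nad, cox, cob, atp, ccm, rps, rpl, sdh, matR or mttB, in exactly that spelling, and go on with letters and digits only, and the rRNAs listed as 18rrn, 26rrn and 5rrn. All 36 names were found on the mitochondrial genome in a RefSeq gene table of apple (assembly GDT2T_hap1). Among them were 9 nad genes, 2 sdh genes, cob, 3 cox genes, 5 atp genes, 4 ccm genes, rpl5, 7 rps genes, matR and the 3 rRNAs. The rule matched no mttB and no other rpl gene.

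The libraries were made from the peel of 'Granny Smith' apples in a study of low oxygen storage and superficial scald, in which the peel turns brown after cold storage. Fruit had been kept under DCA_CF (less than 1% oxygen), under ULO (1% oxygen) or under RA, which the labels do not spell out, and was taken at T1 and T2, for which no storage lengths are given. Each regime at each time was taken with and without a further step tagged SL, whose meaning and length the labels do not give. That makes 12 groups of 3 biological replicates, named DCA_CF SL, DCA_CF, ULO SL, ULO, RA SL and RA at T2 and at T1, all of the same cultivar and tissue; how many fruits made a replicate is not stated.

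Plant mitochondria keep a small genome that encodes part of the respiratory chain: subunits of complex I (nad), which takes electrons from NADH, of succinate dehydrogenase or complex II (sdh), cytochrome b of complex III (cob), subunits of cytochrome c oxidase or complex IV (cox), and of ATP synthase or complex V (atp). It also encodes proteins that attach heme to cytochrome c (ccm), a maturase for intron splicing (matR), ribosomal proteins (rps, rpl) and the rRNAs of the mitochondrial ribosome, while most other mitochondrial proteins come from nuclear genes. In plant mitochondria a poly(A) tail marks a transcript for degradation, unlike in the cytoplasm, so a library made from poly(A) RNA holds an incomplete picture of these transcripts; the labels name the library kit and not the selection step, and the part this plays in the values was not tested.

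The table names no unit. Its values were read as FPKM, because they are not whole and their column totals are unequal; a TPM table that lacks part of its genes would look alike. Either unit corrects fragment numbers for gene length and for library size, and levels of different genes are compared as FPKM only. Transcripts may differ in how well the libraries capture them, which was not tested, and some symbols have more than 1 RefSeq entry. Ranks in FPKM therefore need not be ranks in transcript number. Column totals ran from 689868 to 790211 FPKM, and the reads behind each value are not in the table. Steps in the low values put the depth of the 36 libraries at 0.891 to 1.19 times that of the median library, so depth was nearly even. The peel genes AFS1, the farnesene synthase of apple, and MALD3, a lipid transfer protein of the epidermis, averaged 810.8 and 14430 FPKM over the libraries, and green tissue markers were not identified by symbol. Replicate c of RA at T1 stood apart among the mitochondrial genes: its protein gene values summed to 391 FPKM, against 242 and 211 FPKM in the other RA libraries of that time. Several counts are given without it too, calls of named genes that were lost without it are marked, and the sums of its group are listed by replicate. Replicates are listed in the order a, b, c throughout.

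The most abundant member was 18rrn, the small subunit rRNA, at a mean of 269.7 FPKM over all libraries, followed by 26rrn, the large subunit rRNA, at 78.3 FPKM. Next came atp9, the membrane ring subunit of ATP synthase, at 47.6 FPKM, then 5rrn at 41.5 FPKM, rps12 at 35.7 FPKM and nad1 at 22.7 FPKM. The other 30 members averaged 12.8 FPKM or less. The lowest was ccmB, at 0.310 FPKM and never above 0.799 FPKM, and it was the 1 member that missed the filter of at least 1 FPKM in at least 3 libraries. The remaining 35 were tested with limma on log2(FPKM + 1) in a fit over all 32923 genes that passed, and "called" means an adjusted p under 0.05. On that scale changes of low genes come out smaller than they are. In bulk peel, fewer mitochondria or cells and less of a transcript in each cannot be told apart.

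**Figure D1:**
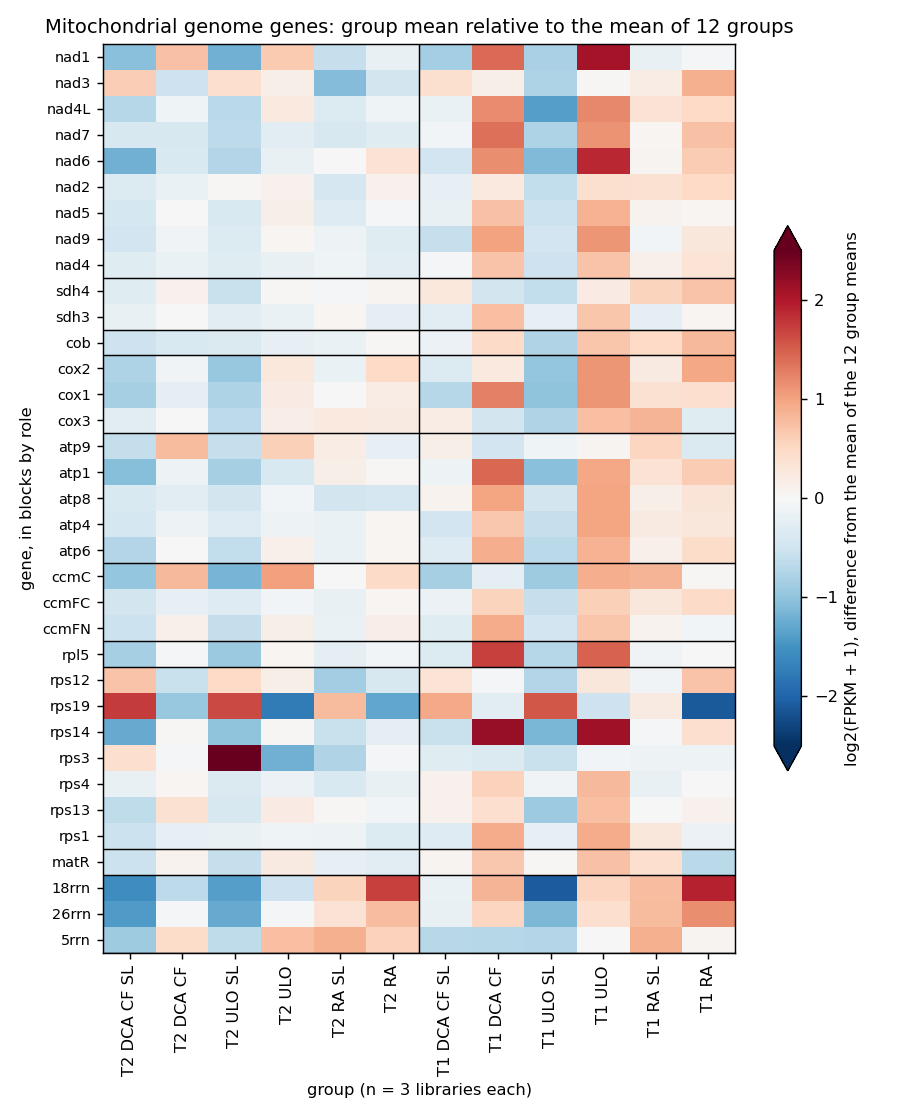
Colour shows each group's mean log2(FPKM + 1) minus the mean over the 12 groups, for the 35 tested members (down, in blocks by role) and the 12 groups (across, T2 left of T1, n = 3 libraries each). Most protein genes are red in DCA_CF and ULO at T1 and blue in the same regimes with SL, while rps19 is blue in the first and red in the second.

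Summed over the protein genes, the level was highest in ULO at T1, at 420.1 ± 7.70 FPKM (SD, n = 3), and lowest in ULO SL at T1, at 154 ± 4.17 FPKM. DCA_CF at T1 had 352 ± 20.0 FPKM, against 282 ± 96.4 FPKM in RA, whose replicates held 241.9, 211.3 and 391.4 FPKM. DCA_CF SL at T1 had 215 ± 16.5 FPKM, against 261 ± 16.1 FPKM in RA SL. At T2 the groups without SL held 242 ± 30.2 FPKM in DCA_CF, 255 ± 8.31 FPKM in ULO and 194 ± 18.2 FPKM in RA. With SL at T2 the sums lay close together, at 199.7 ± 10.1 FPKM in DCA_CF SL, 203 ± 20.6 FPKM in ULO SL and 187 ± 15.2 FPKM in RA SL. The rRNAs were ordered differently: their sum was highest in RA, at 804 ± 19.9 FPKM at T2 and 940.0 ± 147 FPKM at T1. The RA replicates of T1 held 877.5, 834.1 and 1108 FPKM of rRNA. The rRNA sum was lowest in ULO SL at T1, at 97.3 ± 1.68 FPKM. The ratio of rRNA to protein gene FPKM was 4.16 ± 0.287 in RA at T2 and 0.545 ± 0.0179 in DCA_CF SL at T2, the highest and lowest of the 12 groups. All members together made up 0.166% of the table's FPKM in RA at T1 (0.1545%, 0.1448% and 0.1979% by replicate) and 0.0329% in ULO SL at T1.

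Low oxygen was first set against RA without SL at T1. At least 1 protein gene of every role except complex III was higher in both low oxygen regimes, and 18rrn and 26rrn were lower. In ULO, 22 members were higher and 3 lower of 35, where 62.4% of all genes tested were called, 32% higher and 30.4% lower; the median log2 change was 0.65 over the members and 0.03 over all genes. In DCA_CF, 19 were higher and 7 lower, where 67.8% of all genes were called, 31.8% higher and 36.1% lower, with medians of 0.44 and -0.03. The share of members called was close to that of all genes, and the direction was less even. Complex I had 6 of 9 members higher in each regime, and complex V 5 of 5 in ULO and 4 of 5 in DCA_CF. In ULO the calls of atp1, atp6, atp9 and nad7 were lost without replicate b of RA, and in DCA_CF those of atp4, atp6 and nad6. In complex II the 1 higher gene was sdh3, whose calls were lost without that library too. Without replicate b of RA the counts were 17 higher and 4 lower in ULO, and 15 higher and 10 lower in DCA_CF. Without replicate c of RA they were 25 higher and 3 lower in ULO, and 20 higher and 5 lower in DCA_CF. These comparisons share their RA libraries, as do the other pairs of low oxygen comparisons at a given time and SL state.

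With SL at T1 the direction was turned round. In ULO SL against RA SL, 1 member was higher and 30 were lower, where 50% of all genes were called, 24% higher and 26% lower, and the median was -0.83 over members and 0.00 over all genes. In DCA_CF SL, 2 were higher and 19 lower, where 46.2% of all genes were called, 29.5% higher and 16.7% lower, with medians of -0.45 and 0.09. The lower members included 8 of 9 of complex I in ULO SL and 4 of 9 in DCA_CF SL, and all 3 of the rRNAs in both. The higher member in ULO SL was rps19, and DCA_CF SL had rps19 and rps4, the call of rps4 being lost with RLE scaling, which scales by the median of ratios.

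At T2 fewer members were called. In ULO against RA, 6 members were higher and 4 lower, where 68.6% of all genes were called, 43.1% higher and 25.4% lower. In DCA_CF, 5 were higher and 6 lower, where 69.4% of all genes were called, 45.1% higher and 24.3% lower. The all-gene medians were 0.20 and 0.24 here and dropped to 0.04 in both after RLE scaling; with that scaling 3 members were higher and 6 lower in ULO, and 2 higher and 9 lower in DCA_CF. Without replicate a of DCA_CF, 3 were higher and 4 lower in DCA_CF. With SL at T2, ULO SL against RA SL had 4 members higher and 15 lower, where 44.7% of all genes were called, and DCA_CF SL had 3 higher and 15 lower, where 46.9% were called. The member medians were -0.37 and -0.36, beside -0.03 for all genes in each. The higher ones in DCA_CF SL were nad3, rps12 and rps19, and ULO SL had rps3 as well.

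DCA_CF was also set against ULO. At T1 without SL, 2 members were higher in DCA_CF (18rrn and atp1) and 7 lower, where 40.9% of all genes were called; with RLE scaling 3 were higher and 6 lower. With SL at T1, 15 were higher in DCA_CF SL and 1 lower, where 31.3% of all genes were called, 23.9% higher and 7.4% lower. Without replicate b of DCA_CF SL 9 were higher and none lower. At T2, DCA_CF had 1 member higher and 4 lower, where 23% of all genes were called, 7.84% lower, and none was called without replicate a of ULO, 1 without replicate a of DCA_CF and 2 without its replicate b. DCA_CF SL had none higher and 1 lower at T2, where 3.69% of all genes were called, 2.1% lower; none was called without replicate a or b of DCA_CF SL, and 2 without replicate a of ULO SL.

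SL against no SL gave mostly lower members in DCA_CF and ULO. In ULO at T1, SL libraries had 1 member higher and 31 lower, where 65.3% of all genes were called, 27.3% higher and 37.9% lower; the median was -1.45 over members and -0.10 over all genes. In DCA_CF at T1, 2 were higher and 25 lower, where 66.8% of all genes were called, 37% higher and 29.8% lower, with medians of -0.73 and 0.07. In RA at T1, 5 were higher and 8 lower, where 61.6% of all genes were called, and without replicate c of RA 8 were higher and 5 lower, so no direction of the group in RA is stated. At T2 the counts were 3 higher and 19 lower in DCA_CF, where 62.2% of all genes were called, 2 higher and 21 lower in ULO, where 61.8% were called, and 2 higher and 7 lower in RA, where 58.8% were called. For DCA_CF and ULO at T2 the medians were -0.46 and -0.56 over members and -0.24 and -0.21 over all genes, so all genes leaned lower too. With RLE scaling the medians were -0.27 and -0.39 over members and -0.05 and -0.03 over all genes. That scaling left 3 higher and 16 lower, and 4 higher and 16 lower.

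The response to SL was then compared between regimes as a difference of differences. At T1 the response in ULO was below that in RA for 28 members and above it for none, where 51.2% of all genes differed, 24.4% above and 26.8% below. In DCA_CF it was below for 21 members and above for 2, where 59% of all genes differed, 35.1% above and 23.9% below. At T2 the counts were 13 below and 5 above in ULO, where 56% of all genes differed, and 10 below and 3 above in DCA_CF, where 56.6% did. For ULO and DCA_CF the T2 medians were -0.42 and -0.33 over members and -0.22 and -0.23 over all genes. With RLE scaling they were -0.27 and -0.14 over members and -0.01 and 0.00 over all genes. The T2 counts with that scaling were 7 below and 5 above in ULO and 8 below and 4 above in DCA_CF. Complex I, IV and V took 15 of the 28 members at T1 in ULO, and the 3 rRNAs were among them.

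Later against earlier, most calls were lower at T2. In DCA_CF without SL 3 members were higher and 27 lower, where 69.2% of all genes were called, 41.2% higher and 27.9% lower; the median was -0.74 over members and 0.13 over all genes. RLE scaling brought the all-gene median to 0.00 and gave the same counts. In ULO 2 were higher and 26 lower, where 65.2% of all genes were called, 36.7% higher and 28.4% lower, with medians of -0.89 and 0.06. In RA 4 were higher and 15 lower, where 48.6% of all genes were called; without replicate c of RA at T1 6 were higher and 9 lower. The medians in RA were -0.29 over members and 0.00 over all genes. With SL the counts were 1 higher and 13 lower in DCA_CF SL, where 40.7% of all genes were called. They were 6 higher and 3 lower in ULO SL, where 29.7% were called, and none higher and 16 lower in RA SL, where 35.5% were called. The member medians were -0.31 in DCA_CF SL, 0.12 in ULO SL and -0.40 in RA SL. Beside them the all-gene medians were -0.09, 0.00 and 0.03.

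**Figure D2:**
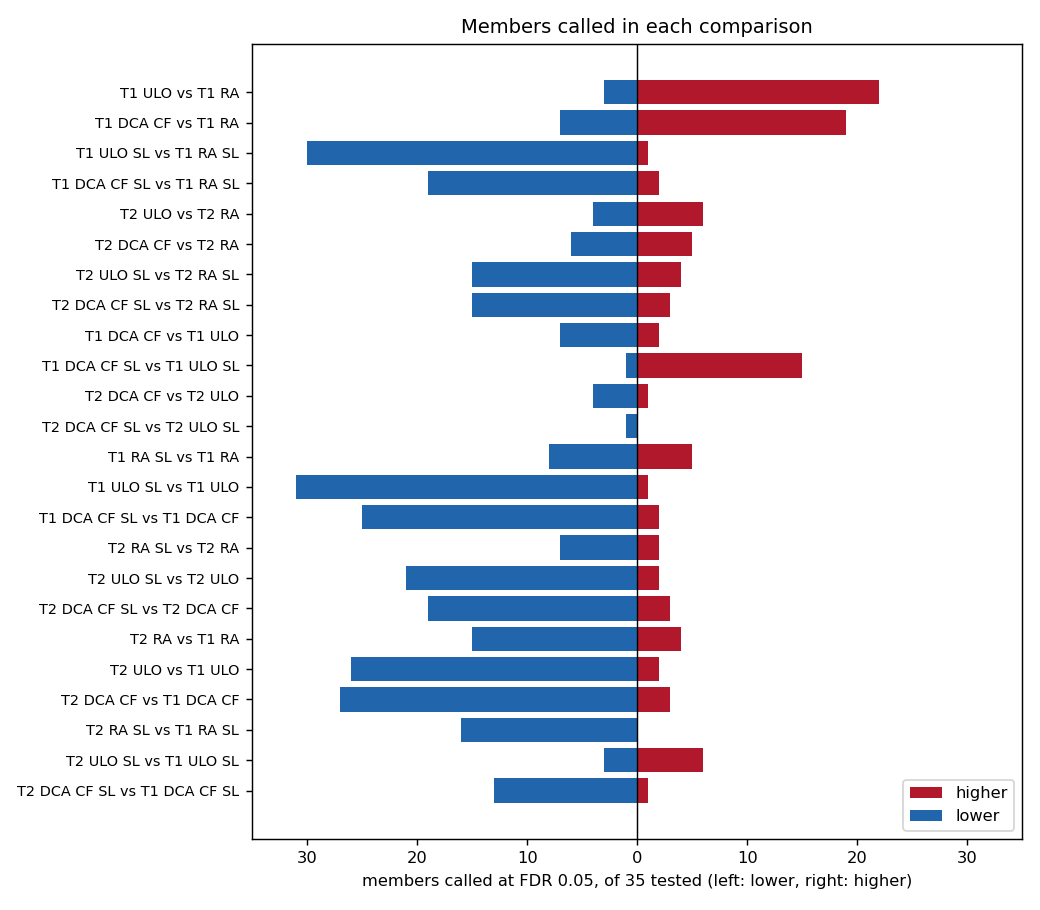
Bars count the members called higher (right, red) and lower (left, blue) in each of 24 comparisons, of 35 tested at an FDR of 0.05, with the first-named group over the second. The bars run right for ULO and DCA_CF against RA at T1 (22 and 19 higher) and left for the same regimes with SL (30 and 19 lower) and for SL against no SL in ULO at T1 (31 lower).

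Of the rRNAs of the mitochondrial ribosome, 18rrn was lower than in RA in every comparison of low oxygen with RA. At T2, 18rrn had 65.6, 62.5 and 66.2 FPKM in DCA_CF SL, 115, 126 and 123 in DCA_CF, 78.0, 71.6 and 71.6 in ULO SL, 137, 135 and 134 in ULO, 297, 280.3 and 278 in RA SL, and 647, 609 and 642 in RA. In SL libraries of T1 there were 163, 177 and 178 FPKM in DCA_CF SL, 44.5, 44.8 and 44.8 in ULO SL, and 327, 339 and 324 in RA SL. Without SL at T1 there were 341, 368 and 336 FPKM in DCA_CF, 272, 256 and 323 in ULO, and 699.6, 674 and 860.4 in RA. Every RA library without SL lay above every other library of its time, and every low oxygen library lay below the RA libraries of the same time and SL state. Against RA the log2 change was -1.09 ± 0.07 (adjusted p = 8.51e-14) in DCA_CF and -1.39 ± 0.07 (adjusted p = 4.18e-16) in ULO at T1. At T2 it was -2.37 ± 0.07 (adjusted p = 1.35e-21) in DCA_CF and -2.21 ± 0.07 (adjusted p = 6.64e-21) in ULO. With SL it was -0.93 ± 0.07 (adjusted p = 7.34e-12) in DCA_CF and -2.86 ± 0.07 (adjusted p = 3.43e-23) in ULO at T1. With SL at T2 it was -2.12 ± 0.07 (adjusted p = 3.80e-20) in DCA_CF and -1.94 ± 0.07 (adjusted p = 3.28e-19) in ULO. The level was lower with SL in all 6 pairs of groups, least so in ULO at T2, at -0.87 ± 0.07 (adjusted p = 1.51e-11), and most in ULO at T1, at -2.63 ± 0.07 (adjusted p = 1.66e-22).

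The large subunit rRNA followed a like order. Without SL its changes against RA were smaller than those of 18rrn at both times. Other changes were larger: SL against no SL in ULO at T2 gave -1.23 ± 0.09 for 26rrn and -0.87 ± 0.07 for 18rrn. At T2, 26rrn had 24.2, 24.5 and 25.1 FPKM in DCA_CF SL, 63.0, 65.6 and 69.1 in DCA_CF, 30.3, 26.8 and 25.5 in ULO SL, 64.6, 64.8 and 67.6 in ULO, 98.6, 82.4 and 81.8 in RA SL, and 118, 112 and 116 in RA. The T1 values with SL were 57.0, 61.9 and 59.9 FPKM in DCA_CF SL, 30.4, 30.7 and 30.8 in ULO SL, and 116, 122 and 116 in RA SL. Those of T1 without SL were 95.4, 104 and 95.3 FPKM in DCA_CF, 85.6, 85.0 and 104 in ULO, and 141, 133 and 191 in RA. Its 3 ULO SL libraries at T1 lay within 1 FPKM of each other and below every other library of that time. In ULO SL against RA SL the log2 change was -1.91 ± 0.09 (adjusted p = 2.15e-16) at T1 and -1.63 ± 0.09 (adjusted p = 7.98e-15) at T2. DCA_CF SL was higher than ULO SL at T1 for both rRNAs, by 1.93 ± 0.07 (adjusted p = 8.77e-19) for 18rrn and 0.94 ± 0.09 (adjusted p = 2.55e-09) for 26rrn. The ratio of 18rrn to 26rrn FPKM was not the same in all groups, with 5.49 ± 0.0537 in RA at T2 and 4.84 ± 0.299 at T1 at the upper end, and 1.46 ± 0.00460 in ULO SL at T1 at the lower. RefSeq has 2 mitochondrial entries named 26rrn, and how the table's value counts them is not given.

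The 5S rRNA did not follow the other rRNAs. At T2, 5rrn had 18.8, 18.9 and 20.3 FPKM in DCA_CF SL, 41.6, 55.3 and 59.0 in DCA_CF, 22.2, 23.5 and 24.3 in ULO SL, 63.9, 61.4 and 62.7 in ULO, 88.6, 55.1 and 67.3 in RA SL, and 55.7, 60.9 and 51.1 in RA. 5rrn stood with SL at T1 at 19.1, 22.3 and 26.7 FPKM in DCA_CF SL, 24.3, 20.5 and 21.1 in ULO SL, and 62.9, 73.2 and 72.0 in RA SL. T1 libraries without SL had 20.9, 20.6 and 25.1 FPKM in DCA_CF, 36.0, 31.2 and 44.8 in ULO, and 36.9, 27.6 and 56.8 in RA. With SL at either time all low oxygen libraries lay below all RA libraries, whereas without SL at T2 the ULO libraries lay just above the RA libraries, a difference that was not called. It was higher at T2 than at T1 in DCA_CF, by 1.18 ± 0.18 (adjusted p = 1.83e-06), and in ULO, by 0.75 ± 0.18 (adjusted p = 7.35e-04), where 18rrn and 26rrn were lower. In RefSeq 18rrn and 5rrn lie next to each other, and in RA SL against RA at T1 18rrn changed at -1.16 ± 0.07 (adjusted p = 2.70e-14) and 5rrn by 0.82 ± 0.18 (adjusted p = 2.90e-04).

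**Figure D3:**
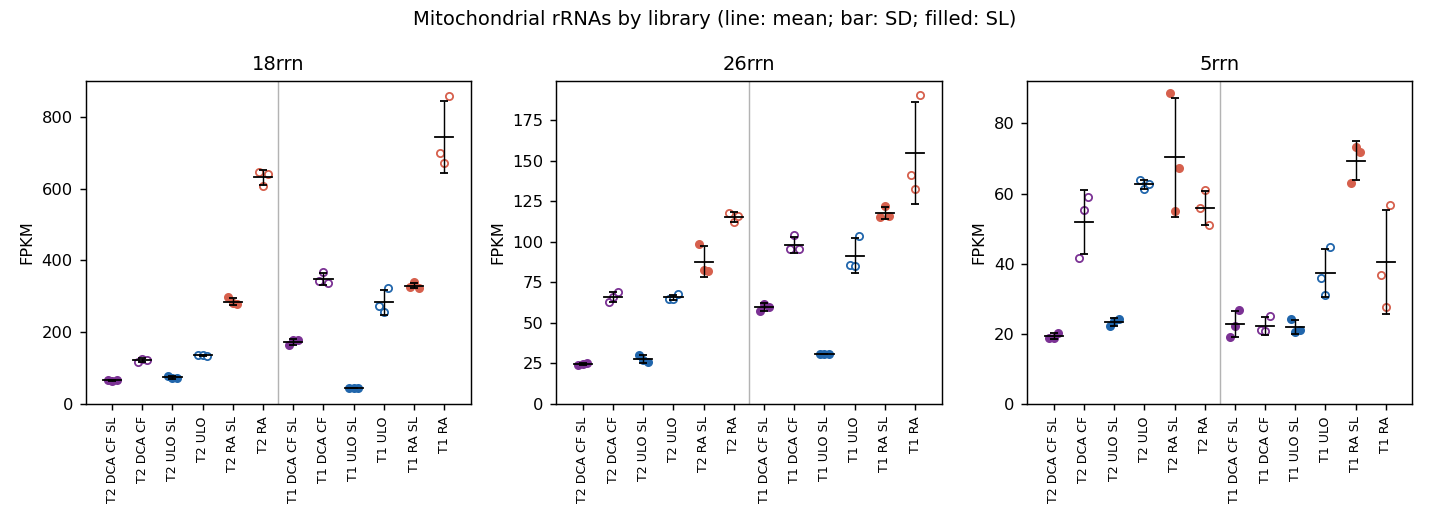
Points are the FPKM of 18rrn, 26rrn and 5rrn in each library, by group (T2 left of T1, filled points with SL), with the group mean as a line and the SD as a bar (n = 3). RA without SL is highest for 18rrn, at 608.6 to 860.4 FPKM, while for 5rrn the ULO libraries of T2, at 61.4 to 63.9 FPKM, lie beside those of RA, at 51.1 to 60.9 FPKM.

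In complex I the most abundant member was nad1, a membrane subunit. At T2, nad1 had 8.91, 6.93 and 7.75 FPKM in DCA_CF SL, 23.1, 27.1 and 39.6 in DCA_CF, 9.27, 7.70 and 4.58 in ULO SL, 29.6, 26.3 and 27.1 in ULO, 13.7, 10.1 and 10.1 in RA SL, and 15.5, 16.1 and 13.6 in RA. SL libraries of T1 had 9.37, 8.81 and 9.03 FPKM in DCA_CF SL, 12.7, 7.36 and 8.82 in ULO SL, and 11.9, 16.0 and 17.2 in RA SL. Libraries without SL at T1 gave 46.4, 50.2 and 46.3 FPKM in DCA_CF, 75.6, 72.1 and 78.0 in ULO, and 13.8, 14.4 and 22.2 in RA. The DCA_CF and ULO libraries without SL stood above all others of their time, with no overlap, and the DCA_CF SL and ULO SL libraries lay below every RA library without SL, while RA SL overlapped RA at both times. At T1 nad1 differed from RA by 1.48 ± 0.20 (adjusted p = 2.93e-07) in DCA_CF and by 2.13 ± 0.20 (adjusted p = 4.20e-10) in ULO. At T2 the differences were 0.91 ± 0.20 (adjusted p = 2.62e-04) in DCA_CF and 0.84 ± 0.20 (adjusted p = 6.67e-04) in ULO. SL against no SL gave -2.27 ± 0.20 (adjusted p = 1.03e-10) in DCA_CF and -2.87 ± 0.20 (adjusted p = 7.48e-13) in ULO at T1, but -0.13 ± 0.20 (adjusted p = 0.599) in RA. At T2 it gave -1.77 ± 0.20 (adjusted p = 1.52e-08) in DCA_CF, -1.85 ± 0.20 (adjusted p = 7.11e-09) in ULO and -0.40 ± 0.20 (adjusted p = 0.0979) in RA. The response in DCA_CF and ULO was below that in RA at both times, with differences of -2.14 ± 0.29 (adjusted p = 2.96e-07) for DCA_CF and -2.74 ± 0.29 (adjusted p = 4.92e-09) for ULO at T1. At T2 they were -1.38 ± 0.29 (adjusted p = 1.76e-04) for DCA_CF and -1.46 ± 0.29 (adjusted p = 9.25e-05) for ULO.

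Of the other subunits of complex I, nad4L, nad5, nad6, nad7 and nad9 were also higher than in RA at T1 in both regimes. The change of nad4 was 0.36 ± 0.17 (adjusted p = 0.0626) in DCA_CF and 0.37 ± 0.17 (adjusted p = 0.0638) in ULO, and that of nad2 was -0.25 ± 0.28 (adjusted p = 0.446) in DCA_CF and -0.09 ± 0.28 (adjusted p = 0.807) in ULO, none of them called. The membrane subunit nad6 had the largest called rise of complex I after nad1 in ULO, at 1.23 ± 0.19 (adjusted p = 2.51e-06). In SL libraries of T1 there were 1.56, 1.97 and 1.63 FPKM in DCA_CF SL, 0.499, 1.15 and 0.679 in ULO SL, and 3.86, 2.61 and 2.64 in RA SL. Without SL at T1 there were 8.004, 7.54 and 6.94 FPKM in DCA_CF, 11.9, 13.8 and 13.2 in ULO, and 4.92, 3.24 and 7.25 in RA. Its ULO libraries were the highest and its ULO SL libraries, 2 of them under 1 FPKM, the lowest. The fall with SL in ULO at T1, -2.99 ± 0.19 (adjusted p = 8.67e-14), was the second largest of any member there. For nad4L it was -2.59 ± 0.18 (adjusted p = 3.02e-13), for nad7 -1.90 ± 0.15 (adjusted p = 5.02e-12), and for nad9 -1.58 ± 0.21 (adjusted p = 1.32e-07). For nad5 it was -1.40 ± 0.13 (adjusted p = 1.04e-10), for nad4 -1.23 ± 0.17 (adjusted p = 3.99e-07) and for nad2 -1.02 ± 0.28 (adjusted p = 0.00211). In the same comparison in DCA_CF nad2 missed the threshold, at -0.45 ± 0.28 (adjusted p = 0.159). At T2, nad6 was lower in low oxygen than in RA with or without SL. Without SL the changes were -0.74 ± 0.19 (adjusted p = 0.00115) in DCA_CF and -0.53 ± 0.19 (adjusted p = 0.0155) in ULO, the call in ULO being lost without replicate b of RA or replicate c of ULO. By contrast nad2, nad4, nad4L, nad5, nad7 and nad9 were not called in any of the 4 T2 comparisons of low oxygen with RA.

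Another membrane subunit of complex I, nad3, ran another course. So did rps12, a protein of the small ribosomal subunit, an entry of which RefSeq places next to nad3. RefSeq has 2 mitochondrial and 2 plastid entries named rps12, and which of them the table's value counts is not given. At T2, rps12 had 52.4, 51.6 and 59.5 FPKM in DCA_CF SL, 18.8, 19.5 and 30.1 in DCA_CF, 49.8, 51.1 and 40.4 in ULO SL, 43.5, 34.0 and 33.4 in ULO, 20.1, 18.1 and 14.9 in RA SL, and 30.6, 21.2 and 23.3 in RA. The T1 values with SL were 37.6, 47.5 and 41.5 FPKM in DCA_CF SL, 21.2, 18.8 and 18.9 in ULO SL, and 28.5, 29.8 and 35.1 in RA SL. Those of T1 without SL were 33.6, 32.6 and 30.4 FPKM in DCA_CF, 39.9, 42.5 and 38.7 in ULO, and 44.5, 39.7 and 91.8 in RA. Replicate c of RA at T1 held the highest value, and at T2 every DCA_CF SL library lay above every library without SL. At T2, nad3 had 15.5, 16.3 and 14.7 FPKM in DCA_CF SL, 6.23, 5.32 and 8.48 in DCA_CF, 16.7, 13.0 and 11.4 in ULO SL, 13.0, 9.47 and 10.8 in ULO, 5.13, 4.45 and 2.90 in RA SL, and 8.68, 5.41 and 6.73 in RA. nad3 stood with SL at T1 at 11.6, 14.1 and 14.01 FPKM in DCA_CF SL, 5.93, 6.44 and 3.91 in ULO SL, and 9.88, 11.8 and 12.4 in RA SL. T1 libraries without SL had 11.97, 12.4 and 8.78 FPKM in DCA_CF, 9.87, 9.82 and 10.3 in ULO, and 16.4, 14.7 and 28.0 in RA. At T2 the DCA_CF SL and ULO SL libraries lay above the RA SL libraries for both genes, with no overlap. Against RA SL at T2 the log2 changes were 1.58 ± 0.21 (adjusted p = 2.25e-07) in DCA_CF SL and 1.37 ± 0.21 (adjusted p = 2.50e-06) in ULO SL for rps12. For nad3 they were 1.70 ± 0.21 (adjusted p = 8.66e-08) in DCA_CF SL and 1.52 ± 0.21 (adjusted p = 6.43e-07) in ULO SL.

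Both rps12 and nad3 were higher with SL in DCA_CF at T2. The changes were 1.25 ± 0.21 (adjusted p = 5.95e-06) for rps12 and 1.12 ± 0.21 (adjusted p = 3.64e-05) for nad3, and rps19 was the 1 other member called higher there. Between regimes, the response in DCA_CF was above that in RA by 1.17 ± 0.29 (adjusted p = 0.00106) for rps12 and 0.95 ± 0.30 (adjusted p = 0.00766) for nad3 at T1. At T2 it was above by 1.72 ± 0.29 (adjusted p = 1.11e-05) for rps12 and 1.75 ± 0.30 (adjusted p = 1.20e-05) for nad3. Both were lower at T2 than at T1 in RA, at -1.11 ± 0.21 (adjusted p = 5.05e-05) for rps12 and -1.35 ± 0.21 (adjusted p = 4.51e-06) for nad3. In RA SL the same change over time was -0.79 ± 0.21 (adjusted p = 0.00353) for rps12 and -1.28 ± 0.21 (adjusted p = 2.02e-05) for nad3. The lower rps12 of DCA_CF against ULO at T2, -0.70 ± 0.21 (adjusted p = 0.0136), lost its call without replicate a of ULO, at an adjusted p of 0.082. The call was also lost without replicate a or b of DCA_CF and with the compared libraries fitted alone.

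**Figure D4:**
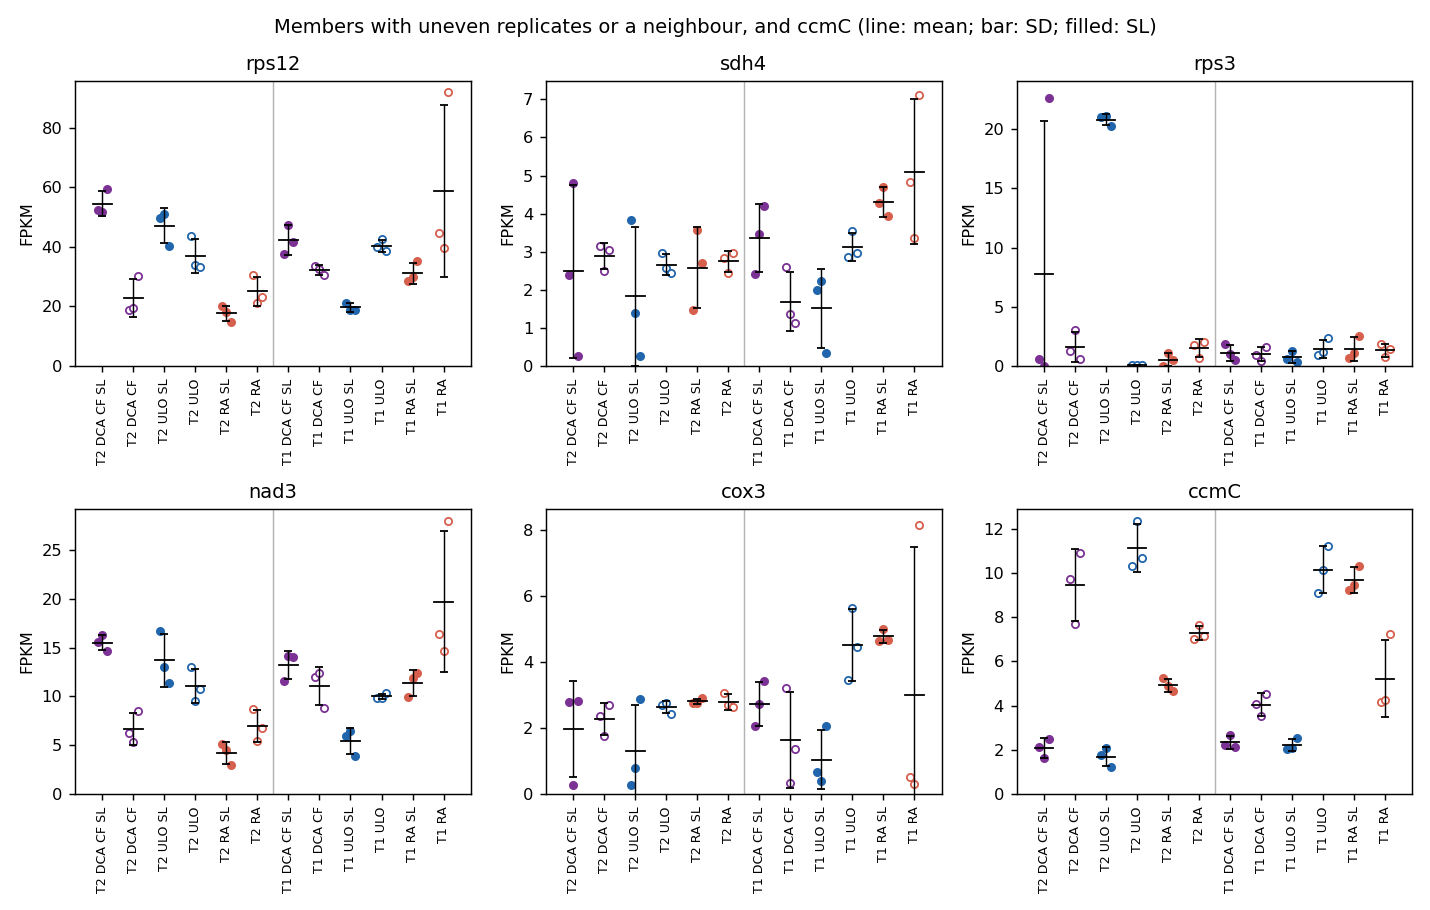
Points are the FPKM of rps12, nad3, sdh4, cox3, rps3 and ccmC in each library, by group (T2 left of T1, filled points with SL), with the mean as a line and the SD as a bar (n = 3). For rps3, 4 libraries sit between 20.3 and 22.7 FPKM and all others at or under 3.05 FPKM, and the wide bars of sdh4 and cox3 mark groups whose replicates disagree.

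Complex II and complex IV hold a pair of genes that overlap in RefSeq, sdh4, a membrane anchor of succinate dehydrogenase, and cox3, a core subunit of cytochrome c oxidase. At T2, sdh4 had 2.40, 4.79 and 0.267 FPKM in DCA_CF SL, 3.14, 2.49 and 3.04 in DCA_CF, 3.83, 1.38 and 0.274 in ULO SL, 2.97, 2.57 and 2.44 in ULO, 1.48, 3.58 and 2.70 in RA SL, and 2.84, 2.45 and 2.96 in RA. SL libraries of T1 had 2.41, 3.47 and 4.19 FPKM in DCA_CF SL, 2.01, 2.22 and 0.330 in ULO SL, and 4.28, 4.71 and 3.93 in RA SL. Libraries without SL at T1 gave 2.59, 1.36 and 1.13 FPKM in DCA_CF, 2.86, 3.54 and 2.96 in ULO, and 4.83, 3.35 and 7.13 in RA. The replicates spread widest in DCA_CF SL and ULO SL at T2 and in RA at T1. At T2, cox3 had 2.79, 0.277 and 2.80 FPKM in DCA_CF SL, 2.35, 1.75 and 2.70 in DCA_CF, 0.263, 0.784 and 2.87 in ULO SL, 2.69, 2.76 and 2.43 in ULO, 2.75, 2.76 and 2.90 in RA SL, and 3.06, 2.68 and 2.62 in RA. In SL libraries of T1 there were 2.07, 2.71 and 3.41 FPKM in DCA_CF SL, 0.658, 0.395 and 2.05 in ULO SL, and 4.64, 5.01 and 4.67 in RA SL. Without SL at T1 there were 3.19, 0.325 and 1.36 FPKM in DCA_CF, 3.44, 5.63 and 4.45 in ULO, and 0.505, 0.299 and 8.16 in RA. In ULO SL at both times and in DCA_CF SL at T2, the replicate with the lowest sdh4 was the one with the highest cox3. In DCA_CF SL at T2 that was by 2.80 against 2.79 FPKM. In DCA_CF, DCA_CF SL, ULO, RA and RA SL at T1, by contrast, the replicate with the highest sdh4 also had the highest cox3. Reads from the overlap cannot be assigned to one gene, and the part this plays in the spread was not tested.

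Few calls were made for either gene. The lower sdh4 in DCA_CF than in RA at T1, -1.17 ± 0.42 (adjusted p = 0.0155), was lost without replicate c of RA, at -0.94 (adjusted p = 0.0803), with a pseudocount of 0.1, at -1.56 (adjusted p = 0.0579), and without replicate c of DCA_CF. Its other call, ULO SL lower than RA SL at T1 at -1.18 ± 0.42 (adjusted p = 0.0209), was lost without replicate b of RA SL or replicate c of ULO SL. For cox3, ULO SL was lower than RA SL at T1 at -1.59 ± 0.52 (adjusted p = 0.0121), and lower than ULO at -1.50 ± 0.52 (adjusted p = 0.0132); both calls were lost without replicate b of ULO SL. Replicate c of RA at T1 had the highest cox3 of all libraries. The other complex II gene, sdh3, which RefSeq types as a pseudogene, was higher in DCA_CF and ULO than in RA at T1, by 0.71 ± 0.24 (adjusted p = 0.0105) and 0.65 ± 0.24 (adjusted p = 0.0198). Both calls were lost without replicate b of RA, and also without replicate b of DCA_CF or of ULO in its own comparison. At T1 sdh3 was lower with SL in both regimes, at -1.04 ± 0.24 (adjusted p = 3.93e-04) and -0.91 ± 0.24 (adjusted p = 0.00147). At T2 its change with SL was called in neither regime.

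Cytochrome b of complex III, cob, was not called higher than RA under either low oxygen regime. At T2, cob had 1.51, 1.92 and 1.51 FPKM in DCA_CF SL, 1.62, 2.11 and 2.03 in DCA_CF, 2.21, 1.67 and 2.04 in ULO SL, 2.64, 2.02 and 2.27 in ULO, 2.74, 2.04 and 2.41 in RA SL, and 3.29, 2.03 and 3.55 in RA. The T1 values with SL were 1.82, 3.14 and 2.52 FPKM in DCA_CF SL, 1.31, 1.19 and 1.27 in ULO SL, and 3.82, 4.83 and 4.55 in RA SL. Those of T1 without SL were 4.63, 4.42 and 3.89 FPKM in DCA_CF, 4.88, 5.13 and 5.36 in ULO, and 5.10, 3.68 and 9.36 in RA. Replicate c of RA at T1 was the highest library, and the ULO SL libraries at T1 were the lowest, with no overlap with any other group of that time. Against RA at T1 the changes were -0.33 ± 0.19 (adjusted p = 0.121) in DCA_CF and -0.12 ± 0.19 (adjusted p = 0.595) in ULO, neither called. Against RA SL at T1 they were -0.64 ± 0.19 (adjusted p = 0.00550) in DCA_CF SL and -1.25 ± 0.19 (adjusted p = 1.64e-06) in ULO SL. It was lower at T2 than at T1 in DCA_CF, ULO, RA and RA SL, with changes of -0.87, -0.89, -0.77 and -0.67, all called. Within T2, DCA_CF was called lower than RA, at -0.42 ± 0.19 (adjusted p = 0.0460), a call that held in 4 of 11 alternatives. ULO against RA at T2 gave -0.24 ± 0.19 (adjusted p = 0.2645), which was not called.

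In complex IV, cox2, the subunit that takes electrons from cytochrome c, was the most abundant. At T2, cox2 had 5.78, 6.32 and 6.70 FPKM in DCA_CF SL, 10.7, 11.01 and 10.2 in DCA_CF, 6.53, 5.17 and 4.79 in ULO SL, 14.8, 13.7 and 13.3 in ULO, 10.3, 10.2 and 9.64 in RA SL, and 17.3, 16.1 and 15.8 in RA. cox2 stood with SL at T1 at 7.90, 9.59 and 9.06 FPKM in DCA_CF SL, 4.89, 5.86 and 5.23 in ULO SL, and 11.5, 13.7 and 15.2 in RA SL. T1 libraries without SL had 13.4, 13.7 and 13.9 FPKM in DCA_CF, 25.3, 24.9 and 26.2 in ULO, and 21.9, 19.9 and 28.7 in RA. Each SL group lay below its group without SL in every regime at both times, with no overlap. The changes with SL at T1 were -0.58 ± 0.10 (adjusted p = 1.53e-05) in DCA_CF, -2.07 ± 0.10 (adjusted p = 2.77e-16) in ULO and -0.75 ± 0.10 (adjusted p = 3.41e-07) in RA. At T2 they were -0.68 ± 0.10 (adjusted p = 1.61e-06) in DCA_CF, -1.21 ± 0.10 (adjusted p = 4.69e-11) in ULO and -0.66 ± 0.10 (adjusted p = 3.16e-06) in RA. DCA_CF was lower than ULO without SL at T1, at -0.85 ± 0.10 (adjusted p = 1.25e-07), and at T2, at -0.36 ± 0.10 (adjusted p = 0.0108), a call lost without replicate a of ULO. With SL at T1 DCA_CF SL was higher, by 0.64 ± 0.10 (adjusted p = 1.33e-05). The catalytic subunit cox1 was higher than in RA at T1 in both regimes, by 0.85 ± 0.14 (adjusted p = 4.00e-06) in DCA_CF and 0.70 ± 0.14 (adjusted p = 7.28e-05) in ULO. Its changes with SL at T1 in DCA_CF and ULO were -1.97 ± 0.14 (adjusted p = 5.71e-13) and -2.12 ± 0.14 (adjusted p = 1.13e-13).

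In complex V, atp9 differed from the other 4 genes in its direction over time in DCA_CF and ULO without SL. At T2, atp9 had 30.4, 29.3 and 28.3 FPKM in DCA_CF SL, 66.5, 80.1 and 91.9 in DCA_CF, 30.0, 33.6 and 25.9 in ULO SL, 64.1, 68.0 and 73.5 in ULO, 57.3, 47.3 and 50.3 in RA SL, and 43.7, 35.8 and 37.0 in RA. SL libraries of T1 had 49.5, 52.6 and 48.9 FPKM in DCA_CF SL, 42.4, 44.8 and 38.6 in ULO SL, and 69.3, 71.1 and 57.4 in RA SL. Libraries without SL at T1 gave 33.7, 34.8 and 28.0 FPKM in DCA_CF, 46.2, 47.5 and 48.4 in ULO, and 31.9, 26.7 and 50.2 in RA. The DCA_CF and ULO libraries at T2 lay above all RA libraries without SL of that time, and the DCA_CF SL and ULO SL libraries lay below all others of T2. It was higher at T2 than at T1 in DCA_CF, by 1.27 ± 0.15 (adjusted p = 1.37e-08), and in ULO, by 0.52 ± 0.15 (adjusted p = 0.00289), where atp1, atp4, atp6 and atp8 were lower in both. With SL, atp9 was called lower at T2 than at T1 in DCA_CF SL and in ULO SL, where the change was -0.48 ± 0.15 (adjusted p = 0.0131). In RA SL it was -0.34 ± 0.15 (adjusted p = 0.0729), not called. SL against no SL gave 0.63 ± 0.15 (adjusted p = 4.38e-04) in DCA_CF, -0.17 ± 0.15 (adjusted p = 0.322) in ULO and 0.89 ± 0.15 (adjusted p = 7.14e-06) in RA at T1, the change in ULO not being called. At T2 it gave -1.40 ± 0.15 (adjusted p = 3.28e-09) in DCA_CF, -1.18 ± 0.15 (adjusted p = 7.72e-08) in ULO and 0.40 ± 0.15 (adjusted p = 0.0207) in RA, where the call was lost without replicate b or c of RA or replicate a of RA SL. At T2 the response in DCA_CF and in ULO was below that in RA, at -1.80 ± 0.21 (adjusted p = 2.55e-08) and -1.58 ± 0.21 (adjusted p = 2.48e-07). RefSeq places atp9 next to nad5, which in DCA_CF and ULO was lower at T2 than at T1, at -0.72 ± 0.13 (adjusted p = 1.15e-05) and -0.73 ± 0.13 (adjusted p = 1.02e-05).

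The alpha subunit of the ATP synthase head, atp1, was higher in DCA_CF than in RA at T1 and lower with SL in both low oxygen regimes. At T2, atp1 had 4.40, 4.49 and 4.16 FPKM in DCA_CF SL, 9.16, 9.15 and 9.75 in DCA_CF, 6.31, 4.91 and 4.74 in ULO SL, 7.35, 7.65 and 7.93 in ULO, 12.6, 10.7 and 11.2 in RA SL, and 11.3, 9.83 and 10.3 in RA. In SL libraries of T1 there were 9.52, 8.54 and 9.95 FPKM in DCA_CF SL, 4.90, 4.52 and 3.94 in ULO SL, and 13.0, 13.6 and 13.7 in RA SL. Without SL at T1 there were 29.5, 31.1 and 27.8 FPKM in DCA_CF, 21.2, 20.9 and 20.9 in ULO, and 15.7, 13.8 and 20.9 in RA. At T1 DCA_CF was highest and ULO SL lowest, each with no overlap with any other group. DCA_CF exceeded ULO there by 0.47 ± 0.10 (adjusted p = 3.39e-04), and exceeded RA by 0.79 ± 0.10 (adjusted p = 5.70e-08). ULO against RA gave 0.32 ± 0.10 (adjusted p = 0.00582); replicate c of RA overlapped the ULO libraries, and the call was lost without replicate b of RA and with the compared libraries fitted alone. SL against no SL gave -1.56 ± 0.10 (adjusted p = 6.59e-14) in DCA_CF and -2.01 ± 0.10 (adjusted p = 2.09e-16) in ULO at T1. Its neighbour in RefSeq, nad7, gave -1.45 ± 0.15 (adjusted p = 1.27e-09) and -1.90 ± 0.15 (adjusted p = 5.02e-12) in the same comparisons.

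**Figure D5:**
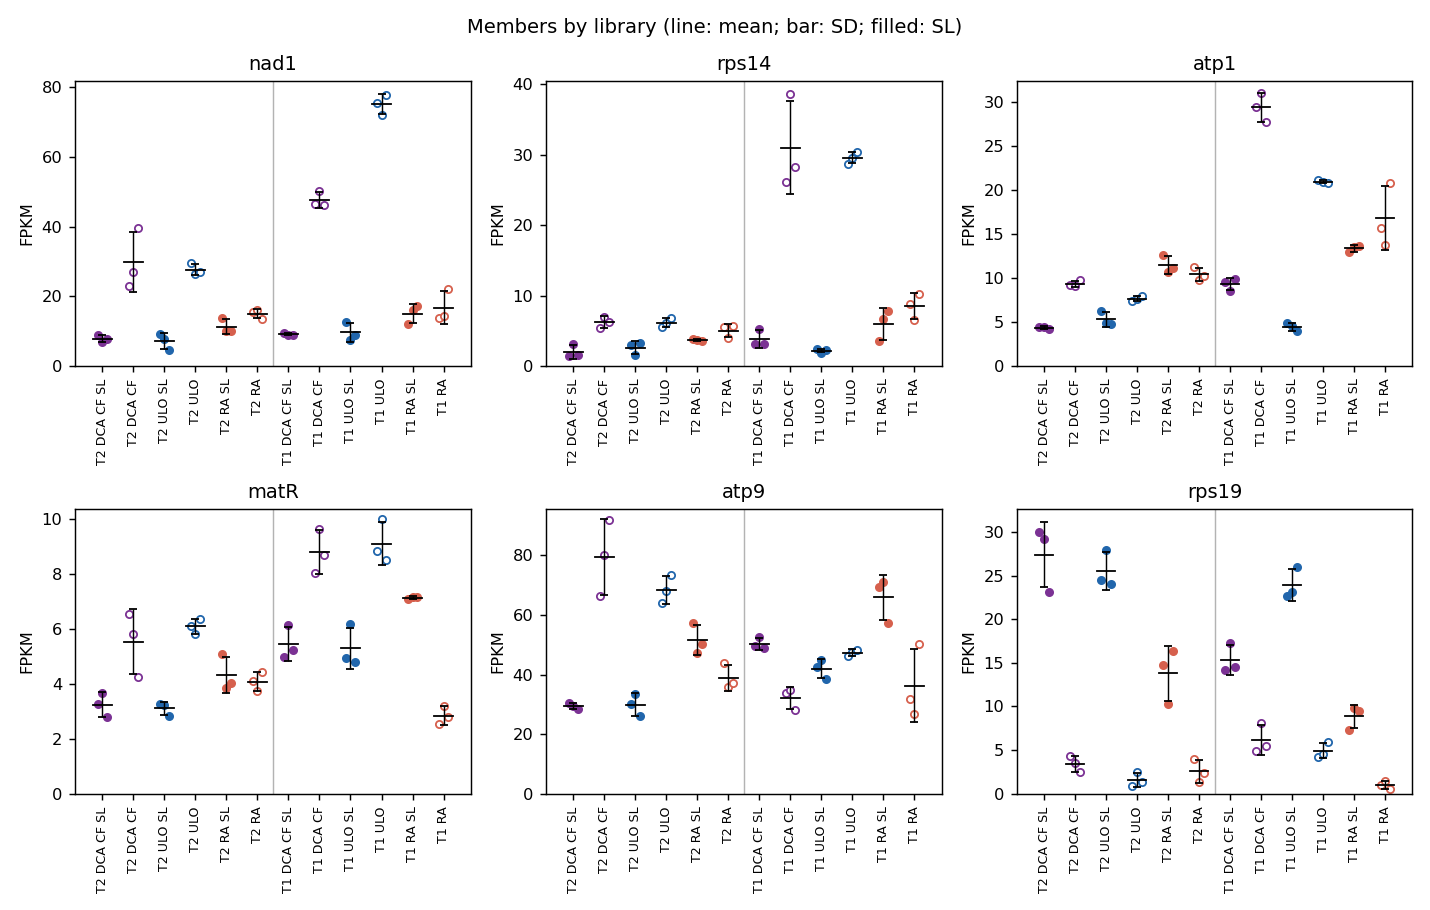
Points are the FPKM of nad1, rps14, atp1, matR, atp9 and rps19 in each library, by group (T2 left of T1, filled points with SL), with the mean as a line and the SD as a bar (n = 3). The DCA_CF and ULO libraries at T1 stand highest for nad1 and rps14, and rps19 is higher with SL than without in all 6 pairs of groups.

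Of the cytochrome c maturation genes, ccmC, which handles heme in this pathway, was the most abundant. At T2, ccmC had 2.14, 1.60 and 2.48 FPKM in DCA_CF SL, 9.74, 7.71 and 10.9 in DCA_CF, 1.78, 2.06 and 1.22 in ULO SL, 10.3, 12.4 and 10.7 in ULO, 5.24, 4.87 and 4.64 in RA SL, and 7.03, 7.65 and 7.16 in RA. The T1 values with SL were 2.20, 2.67 and 2.13 FPKM in DCA_CF SL, 2.02, 2.06 and 2.54 in ULO SL, and 9.26, 9.48 and 10.3 in RA SL. Those of T1 without SL were 4.06, 3.51 and 4.54 FPKM in DCA_CF, 9.10, 10.2 and 11.2 in ULO, and 4.15, 4.27 and 7.24 in RA. With SL at either time the DCA_CF SL and ULO SL libraries, none above 2.67 FPKM, lay below every RA SL library, none under 4.64 FPKM. Against RA SL the changes were -1.68 ± 0.15 (adjusted p = 1.57e-10) in DCA_CF SL and -1.74 ± 0.15 (adjusted p = 5.06e-11) in ULO SL at T1. At T2 they were -0.95 ± 0.15 (adjusted p = 3.37e-06) in DCA_CF SL and -1.15 ± 0.15 (adjusted p = 1.57e-07) in ULO SL. Without SL at T1, ULO lay well above DCA_CF, with DCA_CF against ULO at -1.15 ± 0.15 (adjusted p = 3.19e-07), and at T2 they overlapped. The response to SL in ULO was below that in RA at -2.62 ± 0.21 (adjusted p = 1.92e-11) at T1 and -1.70 ± 0.21 (adjusted p = 6.58e-08) at T2. The other 2 tested genes of this role, ccmFC and ccmFN, parts of the heme attachment machinery, were at 3.81 FPKM or less in every library. Both were lower with SL in ULO at T1, at -1.16 ± 0.15 (adjusted p = 7.88e-08) and -1.17 ± 0.10 (adjusted p = 5.58e-11).

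Among ribosomal proteins, rps14 of the small subunit and rpl5 of the large subunit lie next to each other in RefSeq. At T2, rps14 had 1.35, 3.12 and 1.59 FPKM in DCA_CF SL, 5.34, 7.03 and 6.20 in DCA_CF, 3.05, 1.49 and 3.22 in ULO SL, 5.54, 6.06 and 6.78 in ULO, 3.90, 3.74 and 3.61 in RA SL, and 5.48, 3.997 and 5.62 in RA. rps14 stood with SL at T1 at 3.08, 5.32 and 3.19 FPKM in DCA_CF SL, 2.40, 1.89 and 2.26 in ULO SL, and 3.48, 6.66 and 7.86 in RA SL. T1 libraries without SL had 26.2, 38.6 and 28.3 FPKM in DCA_CF, 28.8, 29.6 and 30.4 in ULO, and 8.77, 6.55 and 10.3 in RA. The 6 libraries of DCA_CF and ULO without SL at T1, all at 26.2 FPKM or more, stood clear of every other library, none of which passed 10.3 FPKM. At T2, rpl5 had 1.25, 1.80 and 1.39 FPKM in DCA_CF SL, 3.77, 3.10 and 2.95 in DCA_CF, 0.957, 1.5 and 1.44 in ULO SL, 2.99, 3.32 and 4.40 in ULO, 3.28, 2.62 and 2.26 in RA SL, and 3.10, 2.43 and 4.13 in RA. SL libraries of T1 had 2.43, 3.46 and 1.68 FPKM in DCA_CF SL, 1.78, 1.21 and 2.04 in ULO SL, and 2.22, 3.33 and 4.06 in RA SL. Libraries without SL at T1 gave 12.7, 13.4 and 13.6 FPKM in DCA_CF, 11.4, 9.999 and 11.9 in ULO, and 3.51, 2.63 and 4.14 in RA. The same 6 libraries were again the highest, none under 9.999 FPKM, against 4.40 FPKM or less in all others.

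Their changes were alike in direction. At T1 against RA, DCA_CF gave 1.75 ± 0.23 (adjusted p = 1.76e-07) for rps14 and 1.70 ± 0.18 (adjusted p = 4.12e-09) for rpl5. At T1 against RA, ULO gave 1.70 ± 0.23 (adjusted p = 3.31e-07) for rps14 and 1.46 ± 0.18 (adjusted p = 7.83e-08) for rpl5. SL against no SL at T1 gave -2.73 ± 0.23 (adjusted p = 3.88e-11) for rps14 and -2.05 ± 0.18 (adjusted p = 1.13e-10) for rpl5 in DCA_CF. In ULO it gave -3.27 ± 0.23 (adjusted p = 8.93e-13) for rps14, the largest fall of any member in any of the 24 comparisons, and -2.19 ± 0.18 (adjusted p = 2.97e-11) for rpl5. In RA the same comparison gave -0.48 ± 0.23 (adjusted p = 0.0755) for rps14 and -0.08 ± 0.18 (adjusted p = 0.719) for rpl5, neither called. The response of rps14 differed from that in RA, with -2.25 ± 0.33 (adjusted p = 1.21e-06) in DCA_CF and -2.78 ± 0.33 (adjusted p = 4.42e-08) in ULO. At T2 against T1, rps14 was lower at -2.14 ± 0.23 (adjusted p = 4.14e-09) in DCA_CF and -2.11 ± 0.23 (adjusted p = 7.14e-09) in ULO.

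The small subunit gene rps19, typed as a pseudogene in RefSeq, was higher with SL in every regime at both times, where most other members were lower or not called. At T2, rps19 had 29.9, 29.1 and 23.1 FPKM in DCA_CF SL, 4.28, 3.53 and 2.47 in DCA_CF, 24.5, 28.0 and 24 in ULO SL, 0.933, 2.495 and 1.37 in ULO, 14.8, 10.3 and 16.4 in RA SL, and 4.01, 1.36 and 2.36 in RA. In SL libraries of T1 there were 14.1, 17.3 and 14.5 FPKM in DCA_CF SL, 22.7, 23.1 and 25.97 in ULO SL, and 7.31, 9.84 and 9.43 in RA SL. Without SL at T1 there were 4.85, 8.06 and 5.47 FPKM in DCA_CF, 4.24, 4.58 and 5.87 in ULO, and 1.01, 1.45 and 0.543 in RA. In each regime at each time, every SL library lay above every library without SL. The changes with SL were 1.21 ± 0.24 (adjusted p = 5.63e-05) in DCA_CF, 2.09 ± 0.24 (adjusted p = 1.08e-08) in ULO and 2.32 ± 0.24 (adjusted p = 1.77e-09) in RA at T1. At T2 they were 2.70 ± 0.24 (adjusted p = 8.61e-11) in DCA_CF, 3.39 ± 0.24 (adjusted p = 7.84e-13) in ULO and 2.09 ± 0.24 (adjusted p = 1.26e-08) in RA. It was called higher in 15 and lower in 3 of the 24 comparisons. At T1 it was also higher than in RA by 1.83 ± 0.24 (adjusted p = 1.03e-07) in DCA_CF and 1.58 ± 0.24 (adjusted p = 1.51e-06) in ULO.

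Some rps19 calls were less firm. DCA_CF SL against ULO SL at T1, -0.62 ± 0.24 (adjusted p = 0.0492), was lost with a pseudocount of 0.1, at an adjusted p of 0.149, and without any 1 of its 6 libraries. DCA_CF against ULO at T2, 0.79 ± 0.24 (adjusted p = 0.0150), rested on groups that overlap. It was lost without replicate a of ULO, at an adjusted p of 0.112, without its replicate c, and without replicate a of DCA_CF. It was also lost with the compared libraries fitted alone. RA at T2 against T1, 0.80 ± 0.24 (adjusted p = 0.00650), was lost without replicate a of RA at T2, at an adjusted p of 0.0831. It was also lost without replicate c of RA at T1 and with the compared libraries fitted alone. DCA_CF SL against RA SL at T1, 0.73 ± 0.24 (adjusted p = 0.0127), was lost without replicate a of RA SL, at an adjusted p of 0.0669. It was also lost without replicate b of DCA_CF SL and with a pseudocount of 0.1. A plastid gene carries the same symbol, as for rps3, rps4, rps12 and rps14, and the table has 1 entry for each.

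The neighbour of rps19 in RefSeq, rps3, which makes a protein of the small subunit, was split between libraries. At T2, rps3 had 0.601, 0 and 22.7 FPKM in DCA_CF SL, 1.22, 3.05 and 0.609 in DCA_CF, 21.1, 21.1 and 20.3 in ULO SL, 0.0815, 0.104 and 0.0836 in ULO, 0, 1.10 and 0.544 in RA SL, and 1.81, 0.671 and 2.06 in RA. The T1 values with SL were 1.83, 1.01 and 0.470 FPKM in DCA_CF SL, 0.603, 1.28 and 0.353 in ULO SL, and 0.643, 1.10 and 2.53 in RA SL. Those of T1 without SL were 0.959, 0.446 and 1.59 FPKM in DCA_CF, 0.897, 1.15 and 2.32 in ULO, and 1.83, 0.749 and 1.43 in RA. The 3 ULO SL libraries at T2 and replicate c of DCA_CF SL at T2 were near 21 FPKM, the 3 ULO libraries at T2 were near 0.1 FPKM, and all others lay from 0 to 3.05 FPKM. In ULO at T2, SL against no SL gave 4.32 ± 0.65 (adjusted p = 1.66e-06), the largest rise of any member in the 24 comparisons, and ULO SL against RA SL gave 3.88 ± 0.65 (adjusted p = 1.27e-05). ULO SL was higher at T2 than at T1 by 3.68 ± 0.65 (adjusted p = 5.84e-05). As DCA_CF SL held 1 high and 2 low replicates, its change against ULO SL at T2, -2.70 ± 0.65 (adjusted p = 0.0146), was lost without its replicate b, at an adjusted p of 0.158, and without its replicate a. That call was also lost with the compared libraries fitted alone. RefSeq has 2 mitochondrial entries named rps3, of which 1 is typed a pseudogene, and which of them the table's value counts is not given.

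The remaining small subunit genes rps1, rps4 and rps13 were higher in ULO than in RA at T1. For rps13, ULO at T1 gave 0.65 ± 0.16 (adjusted p = 9.32e-04) against RA, and SL against no SL in ULO gave -1.67 ± 0.16 (adjusted p = 5.21e-10). For rps1, the least abundant tested member at a mean of 0.893 FPKM, DCA_CF and ULO at T1 gave 1.08 ± 0.19 (adjusted p = 1.11e-05) and 1.08 ± 0.19 (adjusted p = 1.23e-05) against RA. For rps4, which RefSeq places next to rps1 and types as a pseudogene, they gave 0.56 ± 0.09 (adjusted p = 7.60e-06) and 0.80 ± 0.09 (adjusted p = 2.26e-08), and no change of rps4 in any of the 24 comparisons passed 0.97 in size on the log2 scale.

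The maturase gene matR, whose protein takes part in intron splicing, had its lowest level in RA at T1. At T2, matR had 3.26, 3.68 and 2.80 FPKM in DCA_CF SL, 6.54, 5.84 and 4.25 in DCA_CF, 3.28, 3.23 and 2.84 in ULO SL, 6.12, 5.83 and 6.36 in ULO, 5.10, 3.86 and 4.02 in RA SL, and 4.09, 3.73 and 4.42 in RA. matR stood with SL at T1 at 4.96, 6.15 and 5.24 FPKM in DCA_CF SL, 4.93, 6.17 and 4.79 in ULO SL, and 7.09, 7.19 and 7.16 in RA SL. T1 libraries without SL had 8.06, 9.65 and 8.70 FPKM in DCA_CF, 8.83, 10.01 and 8.51 in ULO, and 2.53, 3.21 and 2.81 in RA. All 15 other libraries at T1 lay above the 3 RA libraries, and the DCA_CF and ULO libraries stood highest. Against RA at T1 matR was higher by 1.35 ± 0.11 (adjusted p = 2.61e-11) in DCA_CF and 1.40 ± 0.11 (adjusted p = 1.55e-11) in ULO. It was higher with SL in RA at T1, by 1.09 ± 0.11 (adjusted p = 2.74e-09), and lower with SL in DCA_CF and ULO at T1, with -0.60 ± 0.11 (adjusted p = 3.39e-05) and -0.69 ± 0.11 (adjusted p = 5.66e-06). At T2 it was lower with SL too, with -0.61 ± 0.11 (adjusted p = 3.19e-05) in DCA_CF and -0.79 ± 0.11 (adjusted p = 8.15e-07) in ULO. In RA at T2 the change with SL was 0.06 ± 0.11 (adjusted p = 0.669), which was not called. The difference of the response from RA was called in both regimes at both times, with -1.69 ± 0.16 (adjusted p = 4.91e-10) in DCA_CF and -1.77 ± 0.16 (adjusted p = 2.78e-10) in ULO at T1.

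A further 18 identifiers of the table that the rule does not take are on the mitochondrial genome in RefSeq, 17 tRNAs and rnaseH. Of these tRNA-His (GUG) was highest, at a mean of 5.84 FPKM (0.643 to 19.6 FPKM over libraries), followed by tRNA-Glu (UUC) at 2.03 FPKM and tRNA-Cys (GCA) at 1.32 FPKM, and all others averaged under 1 FPKM. Plastid genes and the nuclear genes of the respiratory chain were not analysed here, as none of the 106 symbols found in RefSeq on the plastid genome alone is in the table and most nuclear genes carry no name.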

How the data were processed

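Peel RNA of 36 libraries was made into non-directional libraries and sequenced on an Illumina instrument, per the labels' protocols. HISAT2, StringTie and DESeq2 are named in the submitters' processing notes, and the genome build is not given in the sources used here. The authors deposited 1 table of 57423 identifiers with no unit named, and its deposited values were read as FPKM from their form alone. Its sheet is named for counts, but the values are not whole, so a count model was not used. Columns headed DCA were matched to the DCA_CF titles by time, SL tag and letter.

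Values were analysed as log2(FPKM + 1) in limma 3.58.1 under R 4.3.3, and 32923 genes were kept, those that reached 1 FPKM in 3 or more libraries. The fit had 1 mean per group over all 36 libraries, a variance trend (eBayes), 24 comparisons of 2 groups and 4 differences of the SL response, and Benjamini-Hochberg adjustment over all genes with a threshold of 0.05. The code was first run on simulated data in which few genes changed. Many more genes were called in most comparisons here, so that run does not bear on these calls. Errors of log2 changes are standard errors. The p-values rest on 1 spread per gene, taken within groups over all 12 groups and moderated by the variance trend. It is not the spread of the compared groups alone. The 3 libraries of a group are described as biological replicates. The members and lists were chosen with earlier results of these data known. Values by library are given for the most abundant member of each role and for the called members with the largest change in each direction of a comparison, with neighbours in RefSeq added after their values were seen.

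Relative depth was read from 4086 genes under 0.5 FPKM in every library, as the commonest ratio of their values between libraries; 99% of library pairs fitted 1 depth per library within 0.05 on the log2 scale. No pair of libraries in a group shared more than 0.00279% of its values. Reads of overlapping or antisense genes cannot be told apart in these libraries, and copies of mitochondrial genes in the nuclear genome and plastid genes of the same symbol may share reads. Alternatives were scaling by the median of ratios (RLE), a pseudocount of 0.1, all genes without the filter, a block for the replicate letter, a fit of the groups compared alone, and omission of each library in turn.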

Additional observations from a re-analysis of the deposited data

Results flagged for a closer look

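The response to SL under low oxygen was tested against the response in RA, and the members below had a different response. At T1, 28 members differed between ULO and RA, where 51.2% of all genes differed; among them was rps14 with a difference of -2.78 on the log2 scale. Between DCA_CF and RA at T1, 23 differed, where 59% of all genes did, among them rps12 at 1.17 and rps14 at -2.25. At T2, 18 members differed between ULO and RA, where 56% of all genes did, among them rps3 at 5.04 and ccmC at -1.70; with RLE scaling there were 5 above RA and 7 below. Between DCA_CF and RA at T2, 13 differed, where 56.6% of all genes did, among them nad3 at 1.75 and atp9 at -1.80. Of the 35 members tested, these are 80% for ULO and 65.7% for DCA_CF at T1, and 51.4% for ULO and 37.1% for DCA_CF at T2. A negative difference means that SL against no SL gave a lower log2 change under low oxygen than in RA. No cause was tested.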

How the results depend on the processing

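Of 332 counts of called members under an alternative, 320 were within 1.5 times the count given. With the compared libraries fitted alone, the counts were 15 for DCA_CF against ULO at T1 (9 in the fit over all libraries), 0 for DCA_CF SL against ULO SL at T2 (1), 14 for RA SL against RA at T2 (9) and 11 for RA at T2 against T1 (19). Leaving out 1 library at a time gave 7 to 11 calls for DCA_CF against RA at T2, 9 to 17 for DCA_CF SL against ULO SL at T1, 0 to 5 for DCA_CF against ULO at T2 and 0 to 2 for DCA_CF SL against ULO SL at T2. The cause was not tested; fewer libraries also leave fewer degrees of freedom. The 46 changes of named members, each taken under several alternatives, gave 322 results. Of these results 305 stayed past the threshold, 17 did not and 0 turned round. Of 516 calls, RLE scaling lost 32, a pseudocount of 0.1 lost 13, no filter 16, the compared libraries alone 47 and leaving out any 1 library 103, and none turned into an opposite call.

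Whether the letters a to c of the titles link libraries across groups is not given. Deviations from the group means correlated at a mean of 0.00292 between libraries of the same letter and -0.00146 between those of different letters. For 17 of the 36 the closest library had the same letter. The level expected without a link was not worked out, so these values do not decide it. With the replicate letter as a block, 4 of the 516 calls were lost; 1 of them was rps19 in DCA_CF SL against ULO SL at T1, at -0.62 with an adjusted p of 0.0564 (limma), which was also lost with no filter, at an adjusted p of 0.067. The counts under the block for ULO and DCA_CF against RA at T1 were 25 and 26.

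Depth limits the low members, as 1 FPKM of rps1 or ccmB rests on few fragments, whose number is not given.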
